A study of Mus musculus with 8 samples.

Results

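Procollagen folding and bone fragility were followed through 10 genes, Serpinh1, Fkbp10, Fkbp14, Fkbp9, Ppib, Tmem38b, Serpinf1, Sparc, Ifitm5 and Bmp1, among the 31053 genes counted in parietal bone cells of mouse pups. They were taken by symbol, for what their products do in the making of type I collagen or in bone fragility, and all 10 were found. Single cells were profiled at postnatal day 4 to 5 (P4-5) in 8 libraries. The 4 WT libraries (S1, S2, S5, S6) and the 4 Het libraries (S3, S4, S7, S8), from pups heterozygous for G610C, a glycine substitution in the α2 chain of type I procollagen (gene Col1a2), carried the same strain label, B6.129(FVB)-Col1a2tm1Mcbr/J. No agent was given, and the mutation sits in the endogenous gene, so every cell of a Het pup carried it. Each library was a pool of several pups of 1 genotype, so animals could not be told apart and the library was the replicate. Kit version 3 was used for S1 to S4 and version 3.1 for S5 to S8, with a different software release for each, so these effects, and that of a separate experiment where the kits mark one, cannot be told apart. Since the mutation is a point change, the Col1a2 count does not check the genotype of a library.

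Type I procollagen is folded in the endoplasmic reticulum (ER), where prolyl bonds are isomerized, prolines and lysines are hydroxylated, and the finished triple helix is held by the collagen-specific chaperone HSP47, the product of Serpinh1, until it reaches the Golgi. Outside the cell the propeptides are cut off and the molecules assemble into fibrils that later mineralize. Loss of several of these proteins causes recessive osteogenesis imperfecta, the brittle bone disease, whose dominant forms come mostly from mutations in the type I collagen genes themselves.

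Osteoblasts (OBs) were recognized by at least 10 UMIs of Col1a1 together with at least 2 UMIs for 2 or more of Runx2, Sp7 and Ibsp. After cells with fewer than 500 genes or with 10% or more mitochondrial UMIs had been dropped, 46420 of 68625 barcodes were left, and 2671 were OBs. A unique molecular identifier (UMI) marks 1 captured transcript, and a level is given as %UMI, the UMIs of a gene as a percent of all UMIs in the cells summed. OBs were staged by Col1a1 into 379 early (eOBs, under 0.75 %UMI), 1217 differentiating (dOBs) and 1075 mature OBs (mOBs, over 3.5 %UMI). The comparison cells were 15370 cells with Col2a1 above 1 %UMI that were not OBs (Col2a1 cells) and the 28379 remaining cells (other cells). The label OB held against markers that had not been used in the choice: Bglap, Dmp1 and Alpl were each higher in OBs than in Col2a1 cells.

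Libraries held 30480239 to 85162035 UMIs, and the mOB sums 664702 to 4805858. Haematopoietic cells were frequent in S1 and S2, and 7063 of the other cells had at least 3 of 11 haematopoietic markers. These haematopoietic-like cells served as a measure of free RNA, since blood cells should make little procollagen. Any pair of libraries shared 2 to 61 barcodes, at most 0.663% of the smaller one. Doublets were kept: 171 of the 2671 OBs also had Col2a1 above 1 %UMI, 114 of them in S5, and 85 had at least 3 haematopoietic markers, 38 of them in S1. In pooled UMIs a lower level can mean fewer cells of a kind or less RNA per cell, which cannot be told apart.

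The genes lie on 6 chromosomes of mouse build GRCm38, and all are protein coding in GENCODE release M21. Serpinh1 (ENSMUSG00000070436, chromosome 7, 99345376 to 99353239) and Ifitm5 (ENSMUSG00000025489, chromosome 7, 140948958 to 140950291) share a chromosome. Fkbp10 (ENSMUSG00000001555, 100415697 to 100424824), Sparc (ENSMUSG00000018593, 55394500 to 55423183) and Serpinf1 (ENSMUSG00000000753, 75409769 to 75422701) lie on chromosome 11. Fkbp14 (ENSMUSG00000038074, 54577604 to 54597308) and Fkbp9 (ENSMUSG00000029781, 56832059 to 56879358) lie on chromosome 6. Ppib (ENSMUSG00000032383) is on chromosome 9 (66060222 to 66066623), Tmem38b (ENSMUSG00000028420) on chromosome 4 (53826045 to 53862019) and Bmp1 (ENSMUSG00000022098) on chromosome 14 (70474558 to 70520234). Exons of Fkbp10, Fkbp14 and Ppib overlap a gene on the opposite strand (Nt5c3b, Plekha8 and Snx22), with 470, 312 and 23 UMIs in all mOBs. Ifitm5 overlaps Gm45717 on its own strand, which held 3 UMIs there, and Tmem38b overlaps the rRNA gene n-R5s185 on its own strand, which is not among the genes counted.

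Promoter windows in the RefSeq table (build GRCm38.p6) were matched for 7 genes, Serpinh1, Fkbp14, Fkbp9, Ppib, Serpinf1, Sparc and Ifitm5, with 2 windows for Fkbp14. The others are Fkbp10, Tmem38b and Bmp1. Of each window the 250 bases before the transcript start were searched on both strands. The windows of 3 genes are printed, since these genes stand for the folding step (Serpinh1) and for the largest rises with maturation (Ifitm5 and Serpinf1). Capitals mark the GC box GGGCGG, the CCAAT box CCAAT and the RUNX core TGTGGT.
Serpinh1, chr7:99353240-99353489, minus strand: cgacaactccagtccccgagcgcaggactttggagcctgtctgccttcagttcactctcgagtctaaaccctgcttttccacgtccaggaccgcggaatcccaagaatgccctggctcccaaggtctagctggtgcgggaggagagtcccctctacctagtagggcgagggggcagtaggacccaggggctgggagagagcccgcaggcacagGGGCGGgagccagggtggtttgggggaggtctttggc
Ifitm5, chr7:140950244-140950493, minus strand: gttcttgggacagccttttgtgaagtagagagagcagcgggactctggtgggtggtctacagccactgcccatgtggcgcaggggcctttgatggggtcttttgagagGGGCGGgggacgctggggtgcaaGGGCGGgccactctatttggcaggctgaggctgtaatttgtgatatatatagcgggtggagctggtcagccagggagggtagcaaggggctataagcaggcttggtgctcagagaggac
Serpinf1, chr11:75422624-75422873, minus strand: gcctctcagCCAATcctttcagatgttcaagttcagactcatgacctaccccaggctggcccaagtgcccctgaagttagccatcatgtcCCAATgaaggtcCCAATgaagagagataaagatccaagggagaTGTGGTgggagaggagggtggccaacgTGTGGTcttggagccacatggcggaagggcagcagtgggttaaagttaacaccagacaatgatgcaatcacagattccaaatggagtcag
The Serpinh1 window held 1 GC box and the Ifitm5 window 2, and GGGCGG was found in 32.7% of all 32851 windows. The Serpinf1 window held 3 CCAAT boxes, found in 33.8% of windows, and 2 RUNX cores, found in 14%. The 8 windows of these genes held no match to TATAAA (12.4% of all windows), to the heat shock element GAANNTTC (6.69%), to the cAMP response element TGACGTCA (1.55%) or to the ER stress response element (0.113%), which contains a CCAAT box. The ACGTG core, whose letters overlap the last of these in part, was in the windows of Fkbp9, Ppib, Serpinf1 and Serpinh1 and in 16.6% of all windows. These matches describe letters only.

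Transcripts of the 10 genes made up 3.41 %UMI ± 0.397 (SD, n = 8 libraries) in mOBs, 1.47 ± 0.213 in dOBs and 0.847 ± 0.251 in eOBs. In mOBs most of that sum was Sparc, with 2.67 %UMI ± 0.352, and Serpinf1 and Serpinh1 followed at 0.227 ± 0.0561 and 0.221 ± 0.0321, which did not differ beyond their spread. These are 3′ tag counts, which do not grow with transcript length. Ppib (0.111 ± 0.0224) and Ifitm5 (0.0670 ± 0.0413) came next, Fkbp10 (0.0418 ± 0.00482), Bmp1 (0.0326 ± 0.00892) and Fkbp9 (0.0293 ± 0.00600) lay close together, and Fkbp14 (0.00937 ± 0.00158) and Tmem38b (0.000949 ± 0.000273) were lowest.

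The levels of 9 of the 10 genes rose with maturation. From eOBs to mOBs the change passed the test for every gene but Tmem38b, always upward, while 35.8% of the 11229 genes tested passed it in either direction, 17.7% upward and 18.1% downward. The median log2 fold change of the 10 genes was 1.5, against -0.03 over all genes tested. The question was which parts of the folding machinery follow procollagen production, and stages were defined by Col1a1 alone, so none of these values chose the cells. The eOB sums also held more transcripts of other cells: all 6 cartilage markers tested fell from eOBs to mOBs, with a summed level of 0.00187 to 2.20 %UMI in WT eOBs and 0.00294 to 0.0880 in WT mOBs, as did all 6 endothelial markers. Their part was not tested. With cells of mixed identity left out (Col2a1 above 1 %UMI or at least 3 haematopoietic markers), 9 genes were again called. That rule used no endothelial markers, so it does not remove such mixing. The plot of levels by stage shows each library.

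**Figure D1:**
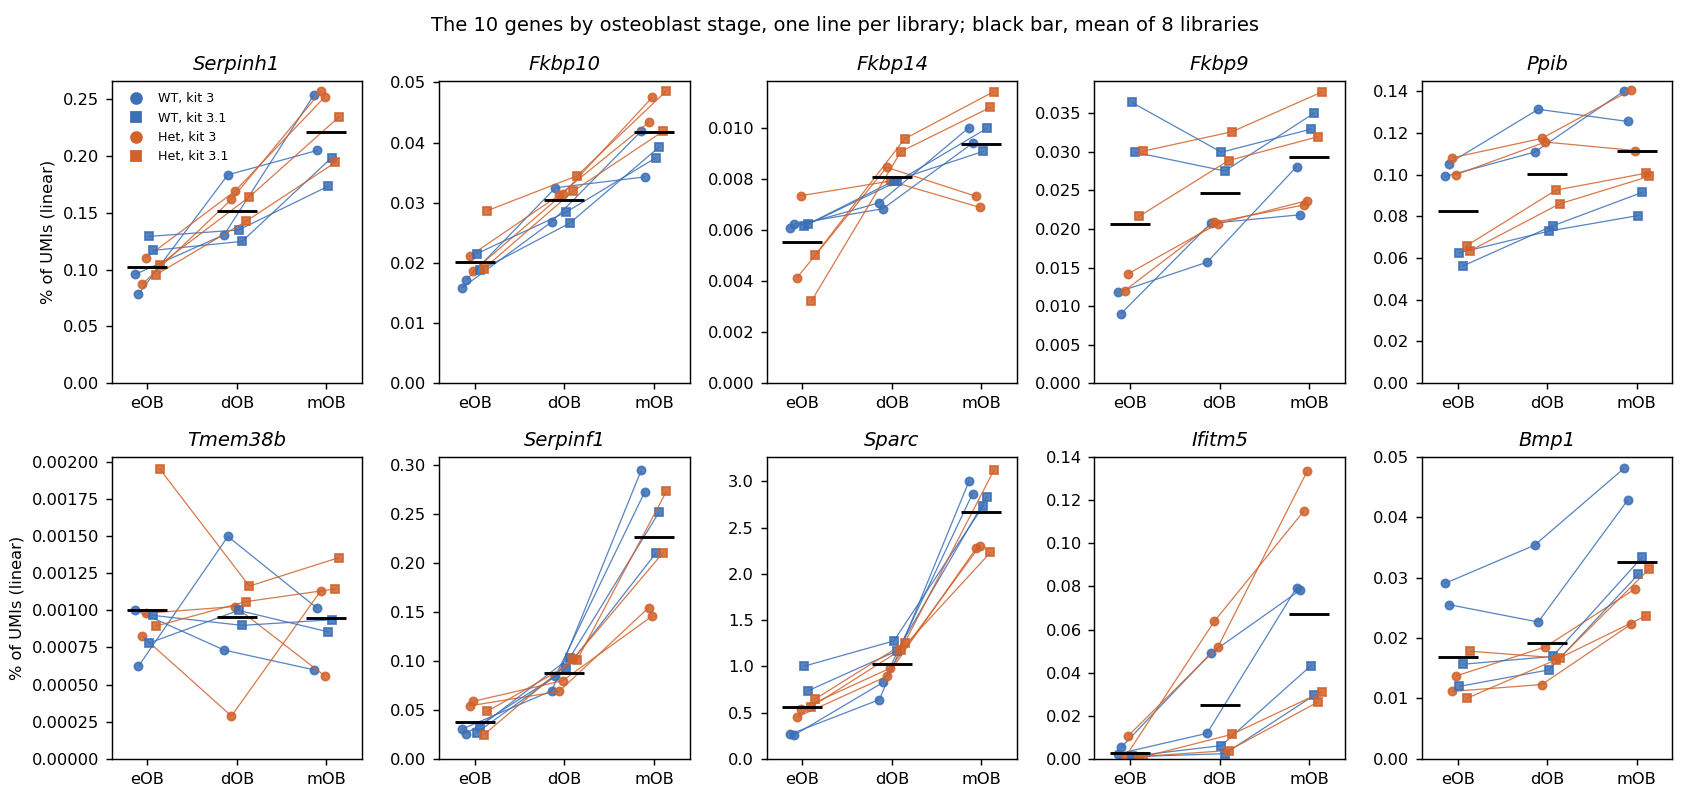
Each panel plots 1 gene as percent of UMIs (linear axis from 0) in eOBs, dOBs and mOBs, 1 line per library, with WT in blue, Het in orange, circles for kit 3, squares for kit 3.1 and a black bar at the mean of 8 libraries. Serpinh1, Fkbp10, Serpinf1, Sparc and Ifitm5 rose at both steps in 8 of 8 libraries, and the Tmem38b lines cross.

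Among the ER chaperones, Serpinh1 ran from 0.0782 to 0.129 %UMI in eOBs (median 0.100) and from 0.173 to 0.257 in mOBs (median 0.22). The ranges did not overlap, and the rise was 1.57 (log2 fold change, SE 0.13, with an edgeR adjusted p = 1.31e-08). Fkbp10, which encodes FKBP65, a prolyl isomerase that works with HSP47, rose almost as much, by 1.53 (SE 0.10, edgeR adjusted p = 3.44e-10). Its level was 0.0159 to 0.0287 %UMI in eOBs and 0.0343 to 0.0486 in mOBs, again without overlap. Both genes stepped up at each stage in 8 of 8 libraries, Serpinh1 by 0.66 and then 0.92 on the log2 scale and Fkbp10 by 0.70 and then 0.83.

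The other ER isomerases also rose, with smaller estimates. Fkbp14, the gene for FKBP22, whose loss gives a kyphoscoliotic connective tissue disorder, rose by 1.23 (SE 0.15), and Fkbp9, a relative of Fkbp10, by 1.04 (SE 0.16). As plain shares of UMIs these rises were 0.75 and 0.51 (log2), and that of Fkbp9 was 0.59 with looser OB selection. Ppib, the gene for cyclophilin B of the prolyl 3-hydroxylation complex, rose by 0.93 (SE 0.08, edgeR adjusted p = 7.51e-09). The level of Ppib also differed between kits, at 0.0991 to 0.108 %UMI in eOBs of kit 3 and 0.0562 to 0.0659 in those of kit 3.1. Fkbp9 showed the opposite, with 0.00903 to 0.0142 %UMI in eOBs of kit 3 and 0.0216 to 0.0364 in kit 3.1. In mOBs the kits still did not overlap for either gene.

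Tmem38b encodes TRIC-B, a potassium channel of the ER membrane that balances calcium release. It gave 55 UMIs in all eOBs, 197 in dOBs and 171 in mOBs, so its levels rest on few counts. They ran from 0.000623 to 0.00195 %UMI in eOBs and from 0.000560 to 0.00135 in mOBs, and mOBs were higher in 4 of 8 libraries. Its change of 0.37 (log2, SE 0.24, edgeR adjusted p = 0.254) was not called. That value is on the TMM scale, which sets the typical gene to 0, and as a plain share of UMIs the mean was 0.00100 ± 0.000403 in eOBs and 0.000949 ± 0.000273 in mOBs. On that plain scale the median gene was lower in mOBs by -0.45 (log2), and the other 9 genes were still higher, by 0.43 (Ppib) to 4.54 (Ifitm5), with 0.95 for Bmp1 against 1.47 on the TMM scale.

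Ifitm5, Serpinf1 and Sparc had the largest estimates. Ifitm5 (BRIL, a small membrane protein nearly specific to mineralizing OBs) was at 0.000414 to 0.0108 %UMI in eOBs and 0.0264 to 0.134 in mOBs. The rise of 5.23 (log2, SE 0.37, edgeR adjusted p = 1.13e-09) was the largest of the 10. Kit 3 libraries were higher in mOBs, with 0.0783 to 0.134 %UMI against 0.0264 to 0.0432 in kit 3.1.

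Serpinf1 encodes the anti-angiogenic serpin PEDF, and Sparc encodes osteonectin, a collagen-binding glycoprotein of bone matrix. Serpinf1 rose by 3.1 (SE 0.21, edgeR adjusted p = 6.34e-10), from 0.0247 to 0.0588 %UMI in eOBs to 0.146 to 0.295 in mOBs. Sparc rose by 2.86 (SE 0.20, edgeR adjusted p = 1.13e-09), from 0.253 to 1.0 %UMI to 2.23 to 3.12. For both genes the lowest mOB library was above the highest eOB library, and the second step was the larger, 1.73 after 1.37 for Serpinf1 and 1.82 after 1.04 for Sparc.

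Bmp1, the gene for the protease that removes the C-propeptide of procollagen, rose late. Its level was 0.0169 %UMI ± 0.00696 (SD, n = 8) in eOBs, 0.0192 ± 0.00718 in dOBs and 0.0326 ± 0.00892 in mOBs. The step from eOBs to dOBs was 0.32 (SE 0.09, edgeR adjusted p = 0.0211) and the step from dOBs to mOBs 1.15 (SE 0.09, edgeR adjusted p = 6.93e-09). The first step was called for 8 genes (background 7.2% of genes upward, 8.15% downward and 15.4% in all), with Fkbp9 (0.40, SE 0.16, edgeR adjusted p = 0.098) and Tmem38b outside, and the second for 9 (background 13% upward, 26.8% in either direction).

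Genes that work beside these were counted from lists. Of the collagen hydroxylation genes 10 of 11 rose from eOBs to mOBs, led by P4ha2 (2.64, SE 0.21), P4ha1 (2.16, SE 0.19), P3h1 (1.74, SE 0.13) and P3h4 (1.41, SE 0.15), which encode prolyl hydroxylase subunits and partners. All 4 further ER isomerases rose, Fkbp11 by 2.85 (SE 0.18), Fkbp7 by 2.35 (SE 0.11), Ppic by 1.17 (SE 0.11) and Fkbp2 by 0.57 (SE 0.13). Of 14 other brittle bone genes tested 11 rose, among them Col1a2 itself (4.43, SE 0.19), Tent5a (3.25, SE 0.26), Creb3l1 (3.23, SE 0.15), which codes for a transcription factor of secretory cells, and Kdelr2 (1.78, SE 0.14), the receptor that returns HSP47 to the ER. The lists share P4hb, P3h1, Crtap and Plod2. These counts are on the TMM scale. As a plain share of UMIs the means of Fkbp2 (0.00895 %UMI ± 0.00497 in eOBs, 0.00875 ± 0.00303 in mOBs), Plod2 (0.0172 ± 0.00949 and 0.0161 ± 0.00606) and Mbtps1 were not higher in mOBs.

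General ER chaperones were mixed. Of 10, 1 rose (Dnajb11, 0.34, SE 0.11) and 2 fell, Sdf2l1 by -1.0 (SE 0.28) and Calr, the gene for calreticulin, by -0.39 (SE 0.13), with a median of 0.00. As a plain share of UMIs all 10 had a lower mean in mOBs, Dnajb11 included (0.0108 %UMI ± 0.00296 in eOBs and 0.00968 ± 0.00235 in mOBs). Propeptide processing genes other than Bmp1 rose in 3 of 6 tested, Adamts14 (1.85, SE 0.28), Pcolce (1.44, SE 0.13), which encodes an enhancer of Bmp1, and Adamts2 (0.38, SE 0.14), whose plain share was not higher in mOBs (0.0189 %UMI ± 0.00608 in eOBs, 0.0172 ± 0.00196 in mOBs). Paralogues of the list members went the other way: 3 of 5 tested fell, Sparcl1 by -4.16 (SE 0.57), Ifitm1 by -1.74 (SE 0.26) and Ifitm3 by -1.63 (SE 0.12), and none rose. Sparcl1 varied widely between the eOB sums, at 0.0112 %UMI ± 0.0120 in WT and 0.0122 ± 0.0197 in Het. Those sums also held transcripts of other cells, whose part in these falls was not tested.

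Finer ranges of Col1a1 within the OBs showed the shape of the rise. Serpinh1 went from 0.102 %UMI ± 0.0165 (SD, n = 8 libraries) below 0.75 %UMI of Col1a1 to 0.129 ± 0.0189, 0.167 ± 0.0332, 0.206 ± 0.0370 and, above 6 %UMI of Col1a1, 0.233 ± 0.0284. Mean Col1a1, which set the ranges, went from 0.399 to 11 %UMI. Sparc climbed in every range, to 3.12 ± 0.449 above 6 %UMI of Col1a1, and Serpinf1 likewise, to 0.264 ± 0.0680.

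Ppib and Fkbp14 had their highest mean one range earlier, at 3.5 to 6 %UMI of Col1a1, with 0.118 ± 0.0255 and 0.0101 ± 0.00184, against 0.108 ± 0.0233 and 0.00887 ± 0.00202 above it. These differences were within the spread. Bmp1 moved little over the first 3 ranges (0.0169 ± 0.00696, 0.0185 ± 0.00658 and 0.0200 ± 0.00863) and was 0.0378 ± 0.00782 above 6 %UMI of Col1a1. The smallest library and range held 10 cells.

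**Figure D2:**
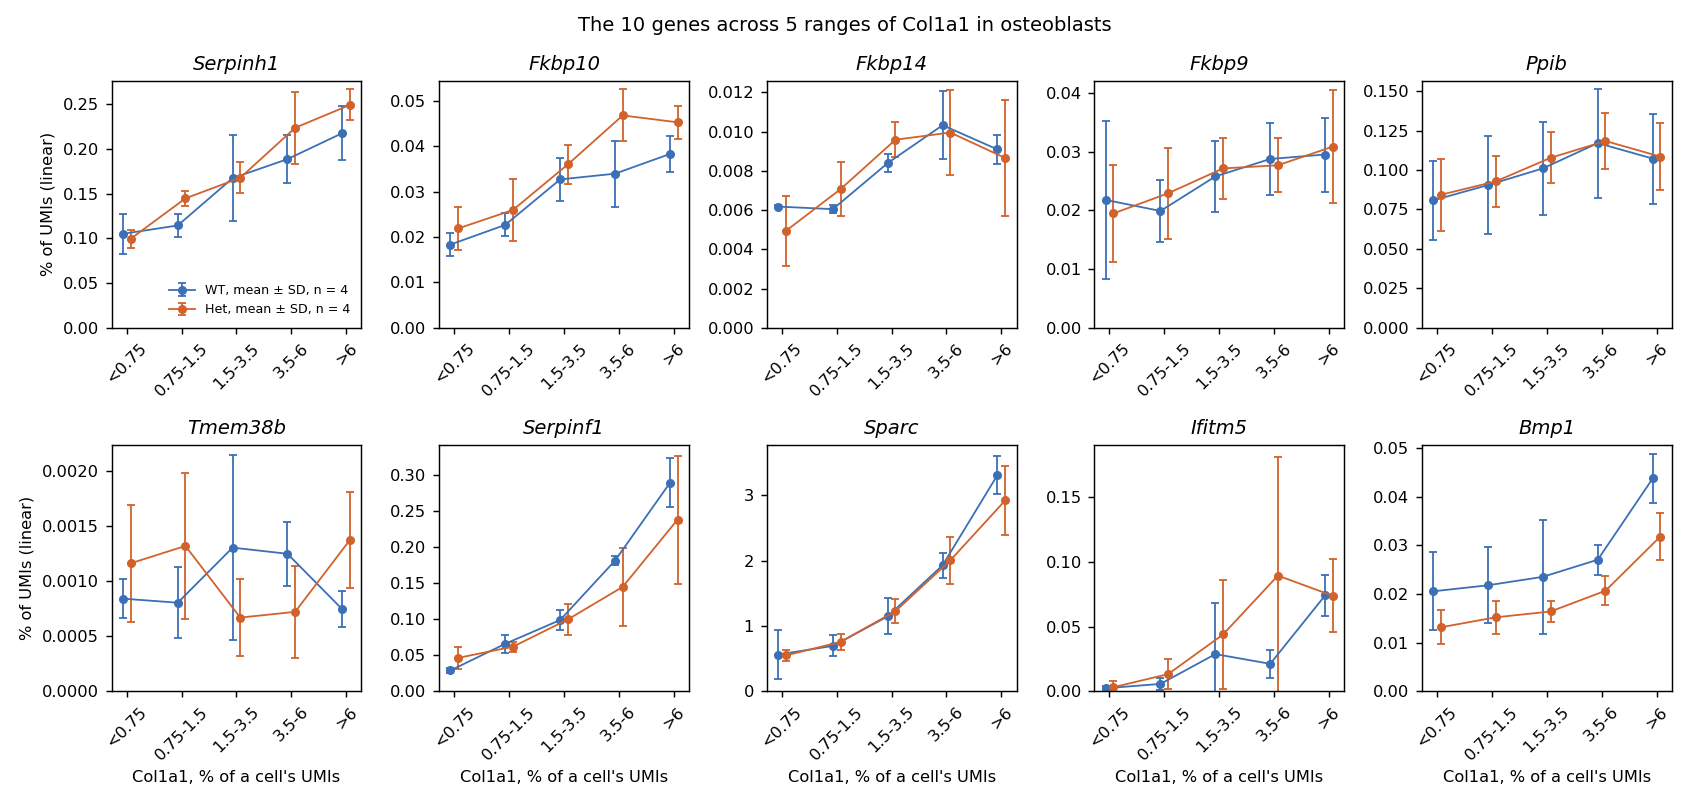
Each panel plots 1 gene as percent of UMIs (linear axis from 0) against 5 ranges of Col1a1 content of the OBs, as mean ± SD of 4 WT (blue) and 4 Het (orange) libraries. Serpinf1, Sparc and Bmp1 take their largest step into the last range, and the ranges are unequal in width. Serpinh1 climbs in every range, while the Het mean of Fkbp10 goes from 0.0467 to 0.0452 at the last step. Bmp1 is lower on average in Het in each range.

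Col2a1 cells, which make a different procollagen in bulk, were used to ask which genes go with type I collagen in particular. Of the 10 genes 4 passed the test between OBs and Col2a1 cells, where 51.1% of 16099 genes did, 24.3% higher and 26.8% lower in OBs. Ifitm5 was higher in OBs by 6.77 (log2, SE 0.37, edgeR adjusted p = 2.00e-10), Serpinf1 by 3.40 (SE 0.25, edgeR adjusted p = 5.30e-09) and Bmp1 by 1.90 (SE 0.25, edgeR adjusted p = 4.71e-06), while Fkbp9 was lower, by -1.16 (SE 0.18, edgeR adjusted p = 3.71e-05).

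The other 6 genes were not called. Serpinh1 was at 0.192 %UMI ± 0.0367 (SD, n = 8) in Col2a1 cells and its difference was -0.18 (SE 0.21, edgeR adjusted p = 0.49), and that of Ppib was -0.15 (SE 0.10, edgeR adjusted p = 0.217). Fkbp10 (0.25, SE 0.19), Fkbp14 (-0.34, SE 0.21), Tmem38b (-0.27, SE 0.15) and Sparc (0.51, SE 0.23, edgeR adjusted p = 0.0723) made up the rest. A missed threshold does not show that these levels are alike. These values are for all OBs together. As plain shares of UMIs, mOBs alone exceeded Col2a1 cells in 8 of 8 libraries for Sparc (1.63 to 3.47 times) and Fkbp10 (1.14 to 2.01 times). They did so in 5 of 8 for Serpinh1 and Ppib and in 3 of 8 for Fkbp14 and Tmem38b. This was not tested.

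In Col2a1 cells Fkbp9 ran from 0.0417 to 0.0687 %UMI and in mOBs from 0.0218 to 0.0378, so even the mOBs lay below. Ifitm5 in Col2a1 cells was 0.000249 ± 0.000167 %UMI, which was not above the 0.000334 ± 0.000270 of haematopoietic-like cells and is read as background. The size of the Ifitm5 difference between OBs and Col2a1 cells therefore depends on that background. Bmp1 in Col2a1 cells (0.00632 ± 0.000678 %UMI) was above the haematopoietic-like level of 0.00126 ± 0.000722, and so was Serpinf1 (0.0132 ± 0.00187 against 0.00470 ± 0.00301).

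The lists split in the same comparison. Of hydroxylation genes 0 of 11 were higher in OBs and 3 were lower, Plod2 by -1.44 (SE 0.25), Plod3 by -0.85 (SE 0.15) and Crtap by -0.45 (SE 0.18). All 4 further isomerases were higher in OBs, Fkbp7 most, by 2.12 (SE 0.20). Propeptide processing genes divided, 3 higher in OBs and 3 in Col2a1 cells, the largest changes being Pcolce2 (-3.73, SE 0.38), Adamts2 (3.41, SE 0.22), Pcolce (1.95, SE 0.26) and Adamts3 (-1.93, SE 0.24). Adamts2 and Adamts3 encode procollagen N-proteinases.

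Against other cells, 9 genes were higher in OBs, from 0.87 (Ppib, SE 0.10) to 5.98 (Ifitm5, SE 0.34), where 46.1% of genes passed the test, 18.7% upward and 27.3% downward. The sum of the 10 genes was 0.839 %UMI ± 0.359 in other cells and 0.146 ± 0.0695 in haematopoietic-like cells. As a plain share of UMIs the median gene was lower in OBs by -0.24 (log2), and the same 9 genes were higher, by 0.68 (Ppib) to 5.64 (Ifitm5). Tmem38b was the exception. Its difference between OBs and other cells was -0.23 (SE 0.14, edgeR adjusted p = 0.199), and its mean was 0.00204 %UMI ± 0.000466 in haematopoietic-like cells, above the mOBs of the same library in 8 of 8 libraries. When haematopoietic-like cells were taken out of the other cells the difference became 0.27 (edgeR adjusted p = 0.267). Ppib also had a sizeable level in haematopoietic-like cells, 0.0365 ± 0.00809 %UMI, and mOBs exceeded it 3.04 times, whereas they exceeded it 22 times for Serpinh1 and 25.9 times for Fkbp10.

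**Figure D3:**
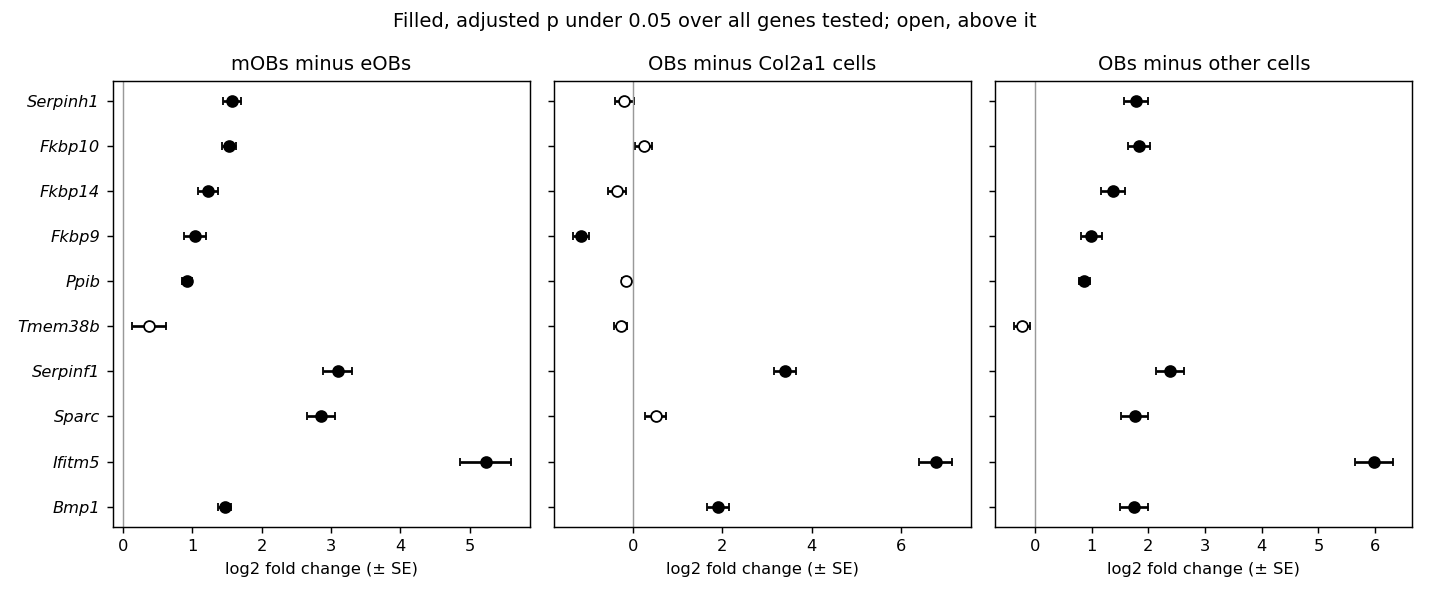
Log2 fold changes with standard errors for the 10 genes, in mOBs against eOBs, OBs against Col2a1 cells and OBs against other cells, where filled points passed an adjusted p of 0.05 over all genes tested. Only Tmem38b is open on the left and right, and 6 genes are open in the middle panel.

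Single cells were also counted. With every cell thinned to 2000 UMIs, a UMI of Serpinh1 was found in 76.0% to 96.2% of eOBs per library (median 82.4%) and 93.5% to 98.7% of mOBs (median 95.2%), against 5.38% to 18.6% of haematopoietic-like cells (median 11%). Without thinning the mOB median was 100% and that of haematopoietic-like cells 39.6%. Ifitm5 was found in 0% to 21.7% of eOBs (median 5.61%) and 18.3% to 68.8% of mOBs (median 51.4%), with a haematopoietic-like median of 0.60%. Unthinned, the medians were 14.4%, 67.6% and 2.30%. Tmem38b was found in 2.43% of mOBs and 3.94% of haematopoietic-like cells (medians; 15.8% and 15.4% unthinned). Thinning left out 10 of 1075 mOBs, 3 of 379 eOBs and 908 of 7063 haematopoietic-like cells, whose median depth ran from 3424 to 16457 UMIs per library against 12348 to 21116 in mOBs.

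Genes with the most similar pattern were sought over 40 sums, 8 libraries by 5 populations, by Pearson's r of log2(CPM + 1) among 9237 genes. Sums of 1 library share depth and kit, and the values are descriptions. Serpinh1 was closest to P3h1 (r = 0.972), P4hb (0.962) and Copz2 (0.956). Fkbp10 was closest to Serpinh1 (0.949), Copz2 (0.944) and P3h1 (0.944). Serpinf1 was closest to Col1a2 (0.979), Col1a1 (0.966) and Fkbp7 (0.963), although Col1a1 set the stages.

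Bmp1 was closest to Ptprs (0.955), Gpr153 (0.931) and its enhancer Pcolce (0.928), and Ifitm5 to Car3 (0.955), Tcf7 (0.947) and Creb3l1 (0.942). Sparc went with Pycr1 (0.935), Tmem263 (0.924) and P4ha1 (0.916), Fkbp14 with Pkdcc (0.941), Gpr180 (0.937) and Gpx8 (0.936), and Fkbp9 with Bgn (0.941), 3632451O06Rik (0.932) and Ikbip (0.930). Ppib was nearest to Dad1 (0.923), Dnajc25 (0.910) and Cnpy2 (0.905). Tmem38b had no close partner, the nearest being Ulk1 (0.663), Auh (0.631) and Rfwd3 (0.612).

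Het libraries were then compared with WT libraries, to ask whether the folding machinery changes in cells that misfold procollagen. In mOBs 0 of the 10 genes passed the test by edgeR with kit version in the model, where 0.518% of 10033 genes did. At an unadjusted p under 0.05 there were 2, Bmp1 and Serpinf1, both lower in Het, where 1104 of the 10033 genes stood, and DESeq2 called 0 of the 10 and 136 of all genes. The median of the 10 log2 fold changes was -0.03, against 0.01 over all genes. No gene of the 10 had WT and Het libraries that did not overlap, while the groups did not overlap for 2.59% of all genes in mOBs, 1.56% in dOBs, 1.32% in eOBs, 1.41% in Col2a1 cells and 5.59% in other cells.

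Bmp1 had the largest difference. Its level in mOBs was 0.0481, 0.0428, 0.0306 and 0.0334 %UMI in the WT libraries S1, S2, S5, S6 and 0.0223, 0.0281, 0.0237 and 0.0314 %UMI in the Het libraries S3, S4, S7, S8. Het was lower within each kit but for S8, which lay between both WT libraries of kit 3.1. The log2 fold change was -0.59 (SE 0.16, unadjusted p = 0.00358, edgeR adjusted p = 0.163). It was -0.93 (SE 0.16) among the kit 3 libraries and -0.28 (SE 0.19) among those of kit 3.1. Without S8 it was -0.78 and passed the test (edgeR adjusted p = 0.0158, where 1.71% of genes passed). With no filter on low counts Bmp1 and Serpinf1 passed, where 2.91% of genes did.

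Over all libraries the Bmp1 estimate was negative at each stage. It was -0.41 (SE 0.20, unadjusted p = 0.0654) in dOBs, -0.60 (SE 0.26, unadjusted p = 0.039) in eOBs and -0.16 (SE 0.07, unadjusted p = 0.0446) in Col2a1 cells, none of them called by edgeR over all genes. In dOBs it was -0.93 (SE 0.26) in kit 3 and 0.03 (SE 0.11) in kit 3.1. In other cells the estimate was 0.58 (SE 0.36). These populations come from the same libraries and are not independent.

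Serpinf1 in mOBs was at 0.295, 0.273, 0.210 and 0.253 %UMI in the WT libraries S1, S2, S5, S6 and at 0.154, 0.146, 0.210 and 0.273 in the Het libraries S3, S4, S7, S8. The genotypes were apart among kit 3 libraries and overlapped in kit 3.1. The log2 fold change was -0.48 (SE 0.20, unadjusted p = 0.036, edgeR adjusted p = 0.408), -1.01 (SE 0.13) in kit 3 and 0.03 (SE 0.20) in kit 3.1. In eOBs Serpinf1 had the opposite sign, 0.57 (SE 0.24, unadjusted p = 0.0357, edgeR adjusted p = 1.0).

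Sparc had WT values of 3.0, 2.87, 2.74 and 2.83 %UMI (S1, S2, S5, S6) and Het values of 2.28, 2.30, 2.23 and 3.12 (S3, S4, S7, S8). The Het libraries S3, S4 and S7 were below all WT libraries and S8 was above them. The Het estimate was -0.26 (log2, SE 0.16, edgeR adjusted p = 0.609), -0.44 (SE 0.10) in kit 3 and -0.09 (SE 0.23) in kit 3.1. Mean Col1a1 was also lower in Het mOBs, at 7.28 %UMI ± 1.25 against 9.74 ± 2.07. At 3.5 to 6 %UMI of Col1a1, mean Sparc was 2.004 %UMI ± 0.356 in Het and 1.930 ± 0.189 in WT. Above 6 it was 2.92 ± 0.532 and 3.31 ± 0.293, with mean Col1a1 at 9.91 and 12.1. Serpinf1 and Bmp1 had lower Het means in each of these ranges. The part of Col1a1 content in the Het values of Bmp1, Serpinf1 and Sparc was not tested.

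For Ifitm5 the kits pointed in opposite directions. WT S1 and S2 had 0.0794 and 0.0783 %UMI and Het S3 and S4 had 0.115 and 0.134, whereas WT S5 and S6 had 0.0432 and 0.0296 and Het S7 and S8 had 0.0264 and 0.0310. The log2 fold change was 0.57 (SE 0.14) in kit 3 and -0.40 (SE 0.21) in kit 3.1, and 0.11 (SE 0.20, edgeR adjusted p = 0.904) over all libraries. Whether the kits differed was not tested.

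Among kit 3 libraries alone, Serpinf1 (edgeR adjusted p = 0.00175), Bmp1 (0.00727), Sparc (0.0226) and Ifitm5 (0.0461) passed the test, where 5.26% of 8657 genes did, and in kit 3.1 none of the 10 did, where 2 genes of 11039 passed. S1 and S2, the WT libraries of kit 3, were the ones rich in blood cells. In the mOB sums haematopoietic markers (1 to 10 of 11 with a UMI) took 0.000957 to 0.0671 %UMI in WT and 0.000150 to 0.0164 in Het libraries, and erythroid markers 0.00947 to 1.27 and 0.00271 to 0.262. Cartilage markers took 0.00294 to 0.0880 %UMI in WT and 0.0199 to 0.234 in Het libraries. Their part in the differences was not tested. With cells of mixed identity left out, over all 8 libraries, the estimate of Bmp1 was -0.62 (SE 0.16), that of Serpinf1 -0.45 (SE 0.21) and that of Sparc -0.27 (SE 0.16). The kit 3 calls were not rerun without those cells.

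Serpinh1 and Fkbp10, the chaperone pair, had estimates nearer 0 than Bmp1, Serpinf1 and Sparc. Serpinh1 was at 0.254, 0.205, 0.173 and 0.199 %UMI in the WT libraries S1, S2, S5, S6 and at 0.257, 0.252, 0.194 and 0.234 in the Het libraries S3, S4, S7, S8, and Het exceeded WT by 0.13 (log2, SE 0.13, edgeR adjusted p = 0.798). Fkbp10 was at 0.0419, 0.0343, 0.0375 and 0.0393 in WT and 0.0434, 0.0475, 0.0419 and 0.0486 in Het (same libraries), a change of 0.19 (SE 0.12, edgeR adjusted p = 0.612). For both genes the Het mean was higher, but WT libraries reached into the Het range, S1, S2 and S6 for Serpinh1 and S1 for Fkbp10. The Fkbp10 overlap was between kits, and within each kit both Het libraries were above both WT libraries. For Serpinh1 the genotypes overlapped within each kit. How many of all genes are apart within each kit was not counted. The changes of Fkbp14 (-0.17, SE 0.14), Fkbp9 (-0.08, SE 0.12), Ppib (0.02, SE 0.13) and Tmem38b (0.17, SE 0.29) were within 2 standard errors of 0 over all libraries. Fkbp14 was at -0.54 (SE 0.14, unadjusted p = 0.0029, edgeR adjusted p = 0.0533) in kit 3 and 0.15 (SE 0.15) in kit 3.1.

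**Figure D4:**
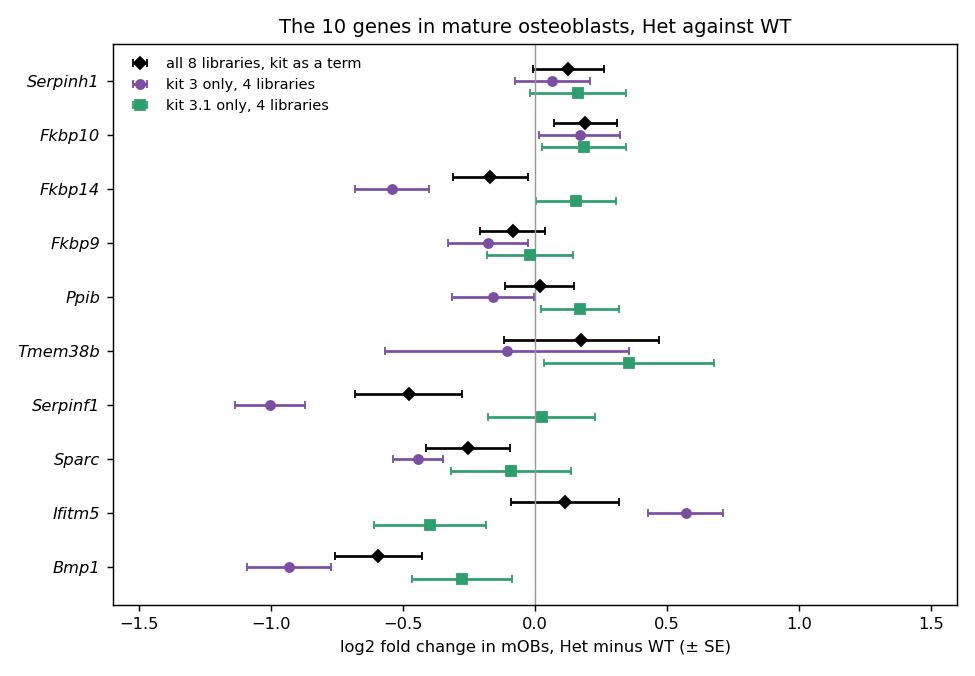
Log2 fold changes in mOBs, Het minus WT, with standard errors, for all 8 libraries with kit as a term (black diamonds), the 4 libraries of kit 3 (purple circles) and the 4 of kit 3.1 (green squares). The kits are apart for Serpinf1, Ifitm5, Fkbp14 and Bmp1 and close together for Serpinh1 and Fkbp10.

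Of the lists of genes that work beside these, 1 gene passed the test in mOBs, Pdia6 (0.57, SE 0.11, edgeR adjusted p = 0.0361), a disulfide isomerase among the general ER chaperones, of which 9 of 10 had a positive estimate, with a median of 0.46, while 51.8% of all genes were positive. Of the hydroxylation genes 10 of 11 were positive, with a median of 0.21 and 0 called, and of propeptide processing genes other than Bmp1 1 of 5 tested was positive, with a median of -0.30 and 0 called. Among the cell type markers 2 genes passed. Bglap, the gene for the late OB product osteocalcin, was lower in Het mOBs, with 0.236 %UMI ± 0.12 against 1.06 ± 0.592 (SD, n = 4 each; log2 fold change -2.08, SE 0.40, edgeR adjusted p = 0.0448), and it has near-identical copies among which reads may be split. Other OB markers were not called, with 0.46 (SE 0.25) for Dmp1, 0.19 (SE 0.13) for Alpl, 0.15 (SE 0.16) for Pth1r, 0.14 (SE 0.24) for Phex and -0.60 (SE 0.17) for Spp1. Acta2, a mural cell marker, was higher (1.56, SE 0.29, edgeR adjusted p = 0.0361), and of the mural markers tested beside it Myl9 had 0.56 (SE 0.19) and Notch3 -0.48 (SE 0.31), neither called. Their part in the values of Bmp1, Serpinf1 and Sparc was not tested.

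In the other populations 0 of the 10 genes passed the test as well. The background was 0.00981% of genes in dOBs, 0% in eOBs, where Tmem38b was too low to test, 0.103% in Col2a1 cells (0.0342% higher, 0.0685% lower) and 0% in other cells. Unadjusted p-values under 0.05 were 338 of 8732 in eOBs and 3823 of 16374 in other cells. In dOBs 7 of the 10 estimates were positive, as were 49.4% over all genes, and the largest was that of Ifitm5, 0.85 (SE 0.44, edgeR adjusted p = 0.672). With no filter on low counts it passed, where 1.39% of genes did. In Col2a1 cells Ifitm5 had -1.17 (SE 0.51, unadjusted p = 0.0419) at a level read as background above.

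In other cells 9 of 10 estimates were positive (52.8% over all genes), with a median of 0.64 against 0.03 over all genes, and Tmem38b was negative (-0.54, SE 0.21, unadjusted p = 0.0373, edgeR adjusted p = 0.201). The positive estimates were seen in kit 3 and not in kit 3.1. Among kit 3.1 libraries all 10 estimates in other cells were negative, from -0.02 (Fkbp9, SE 0.11) to -1.24 (Ifitm5, SE 0.42), with -0.25 (SE 0.13) for Serpinh1 and -0.76 (SE 0.18) for Serpinf1, and 0 were called. Over all 8 libraries the 11 haematopoietic markers all had negative estimates in other cells, with a median of -1.70, and other cells of S1 and S2 held most haematopoietic-like cells. The part of that mixture in these values was not tested. In kit 3 alone 8 genes passed in other cells, where 31.4% of genes did, and 3 in eOBs, where 5.81% did. In eOBs the estimate of Sparc was 0.91 (SE 0.12) in kit 3 and -0.62 (SE 0.27) in kit 3.1, that of Serpinf1 0.97 (SE 0.17) and 0.19 (SE 0.34), and that of Bmp1 -1.17 (SE 0.22) and -0.12 (SE 0.31).

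Whether the Het effect differed between mOBs and dOBs was tested with the library as a block. No gene of the 10 passed by edgeR, nor did any of 11187 genes (0%), while 504 had an unadjusted p under 0.05. The difference was positive for 1 of the 10 and for 47% of all genes, with a median of -0.22 against -0.02 over all genes. It was -0.97 (SE 0.51) for Ifitm5, -0.50 (SE 0.25) for Serpinf1, -0.46 (SE 0.29) for Sparc and -0.38 (SE 0.17, unadjusted p = 0.0483, edgeR adjusted p = 1.0) for Fkbp14. With no filter on low counts the Ifitm5 term passed, where 0.447% of genes did.

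The amount of chaperone message per client message was compared last. In mOBs there were 12.4, 11.8, 13.1 and 14.4 UMIs of Serpinh1 per 1000 UMIs of Col1a1 and Col1a2 in the WT libraries S1, S2, S5, S6, and 23.3, 19.1, 21.0 and 17.1 in the Het libraries S3, S4, S7, S8. Every Het library was above every WT library, with means of 20.1 ± 2.66 and 12.9 ± 1.09 (SD, n = 4 each), a log2 difference of 0.63. Within kit 3 the difference was 0.80 and within kit 3.1 it was 0.47.

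Neither term alone separated the genotypes. Col1a1 and Col1a2 together took 16.2 %UMI ± 3.34 in WT and 11.8 ± 2.06 in Het mOBs, while Serpinh1 took 0.208 ± 0.0336 and 0.234 ± 0.0284. The same ratio had a median log2 difference of 0.49 over 10286 genes, and 8.47% of genes had all Het libraries above all WT libraries and 0.0778% all below. Of the 10 genes Serpinh1, Fkbp10 (3.90 ± 0.452 against 2.43 ± 0.474 per 1000) and Ppib (9.84 ± 2.47 against 6.70 ± 0.486) had every Het library above every WT library, and the median over the 10 was 0.48. Bmp1 stood lowest, with 2.25 ± 0.234 in Het and 2.39 ± 0.0689 in WT (log2 difference -0.09). Since OBs and their stages were chosen by Col1a1, which is part of the denominator, these ratios are given as a description, with no test.

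At earlier stages the ratio did not separate the genotypes over all libraries. It was 45.7 ± 13.6 in WT and 47.6 ± 5.46 in Het dOBs (log2 difference 0.10, n = 4 each) and 154 ± 19.1 and 124 ± 30.0 in eOBs (-0.34, n = 4 each).

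**Figure D5:**
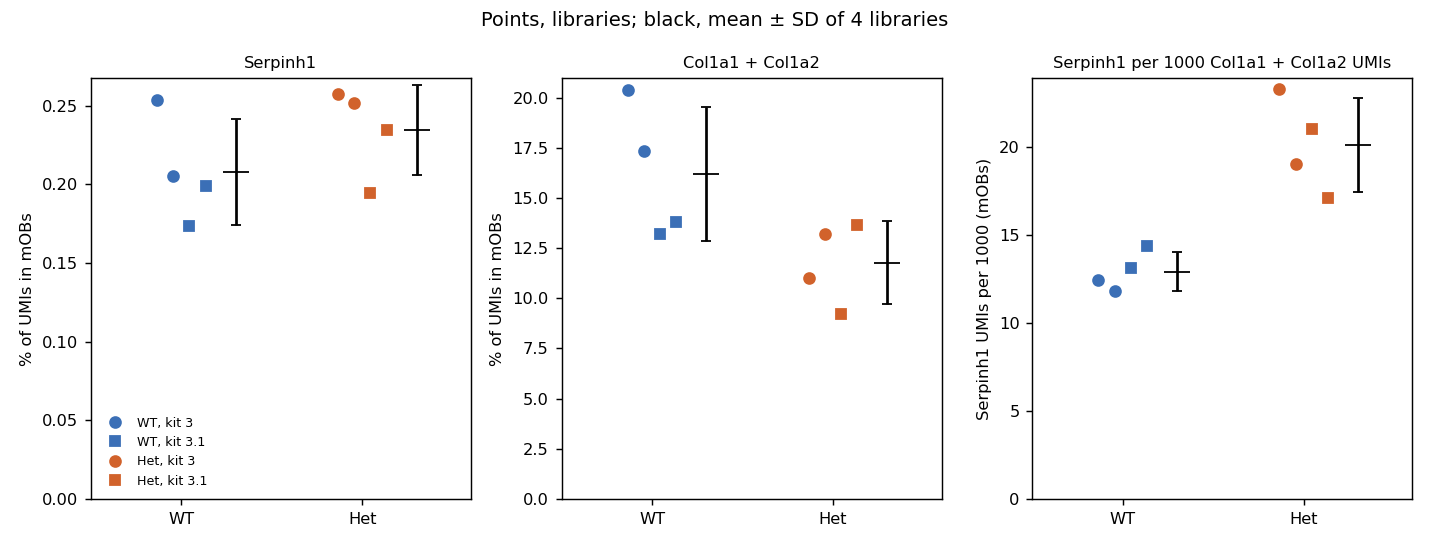
Serpinh1 and the sum of Col1a1 and Col1a2 as percent of UMIs, and Serpinh1 UMIs per 1000 type I procollagen UMIs, in the mOBs of each library (points; circles kit 3, squares kit 3.1), with the mean ± SD of 4 libraries in black and axes from 0. The genotypes overlap in the first panels and separate in the third, between 14.4 and 17.1.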

How the data were processed

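Parietal bone cells of P4-5 mice were profiled with 10x Genomics 3′ kits, version 3 for S1 to S4 and 3.1 for S5 to S8. The deposited values are UMI counts per gene and cell, made by the authors with Cell Ranger 5.0.0 (S1 to S4) or 6.0.1 (S5 to S8) on build mm10, and they were used as raw counts. The transcript annotation and the treatment of intronic reads are not given in the sources used here. Gene identifiers were matched to GENCODE release M21 for 30934 of 31053 genes.

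The genes and lists were chosen with earlier results of these data known. Cells were selected as described in the report and UMIs summed per library and population, so a library is 1 replicate (4 per genotype, 2 per kit and genotype). Each library held cells of several pups of 1 genotype. The study refers to independent experiments with these cells, without tying libraries to them in the sources used here, so p-values measure the spread between these libraries, which may be partly technical. Sums were tested with edgeR 4.0.16 in R 4.3.3 (filterByExpr, TMM, quasi-likelihood F test), with kit and genotype as terms for Het against WT and the library as a block for stages, populations and the stage by genotype term. The p-values were adjusted by Benjamini-Hochberg over all genes tested, and an adjusted p under 0.05 was called. Fold changes are log2. DESeq2 1.42.0 was an alternative. The scripts were tested on simulated data. An exact permutation test had been planned for the Serpinh1 ratio, and its p is not given, since Col1a1 both chose the cells and enters the ratio. Named genes were the 10 genes themselves, called genes of the lists (the 4 with the largest change each) and the 3 genes most alike each of the 10, among genes with at least 10 CPM. Further genes of the lists are named outside this rule. They include markers not called in mOBs and genes whose plain share of UMIs was not higher in mOBs.

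Replicate numbers were checked for pairing by the correlation of deviations from the group means, which was -0.034 in kit 3 and -0.014 in kit 3.1, so the numbers were not taken to pair the samples. Other settings changed the filter on low counts, the OB rule, the Col1a1 limits, mitochondrial and mixed cells, depth, kit and single libraries. Counts of cells with a UMI carry counting error only through the number of cells.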

Additional observations from a re-analysis of the deposited data

Results flagged for a closer look

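Of 100 groups of 4 libraries examined, 5 held a library whose gap to its nearest neighbour exceeded Dixon's critical share of the group's range, and chance alone gives about 1 in 20. Sparc in mOBs was 3.12 %UMI in Het S8, against 2.23 to 2.30 in the other Het libraries. Ifitm5 in eOBs was 0.0108 %UMI in Het S4, against 0.000414 to 0.00107, and rested on 22 UMIs. Ifitm5 in Col2a1 cells was 0.000592 %UMI in WT S5, against 0.000139 to 0.000183, and S5 was also the library with the most OBs above 1 %UMI of Col2a1, 114 of 821. Tmem38b in eOBs was 0.00195 %UMI in Het S8, against 0.000828 to 0.000980, from 7 UMIs, and in dOBs it was 0.000289 in Het S3, against 0.00103 to 0.00116, from 3 UMIs.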

How the results depend on the processing

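The counts of genes called between stages (9) and against other cells (9) did not change under any of 17 alternatives each, and against Col2a1 cells 4 or 5 were called. The numbers of genes called between Het and WT depended on the setting. In mOBs, 0 became 2 with no filter on low counts (Serpinf1 and Bmp1), 4 in kit 3 only and 0 to 1 when 1 library was left out (1, Bmp1, without S8). With no filter, 1 was called in dOBs and 1 in the stage by genotype term, Ifitm5 both times. In kit 3 only, 3 were called in eOBs and 8 in other cells. Of all genes, 52 were called in mOBs, 136 with DESeq2, 536 with no filter, 455 in kit 3 only, 2 in kit 3.1 only, 0 with no kit term, 84 with other Col1a1 limits, 26 (of 3258 tested) in thinned cells, 193 without S7, 178 without S8, 14 without S1, 11 without S2 and 30 without S4. With the replicate block, pairing libraries by number, 0 of the 10 genes were called in mOBs, as in the other populations, and 58 of all genes in mOBs. The cause of these differences was not tested.

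In mOBs the Het estimate of Fkbp14 became 0.15 in kit 3.1 only, that of Fkbp9 0.0440 in thinned cells, that of Tmem38b -0.11 in kit 3 only and that of Serpinf1 0.0252 in kit 3.1 only. That of Ppib was -0.0381 with looser OB selection, -0.0128 with mixed cells left out, -0.0288 with no kit term, -0.16 in kit 3 only and -0.0357 with other Col1a1 limits. That of Ifitm5 was -0.0388 with looser selection, -0.40 in kit 3.1 only and -0.0226 with other limits. With 1 library left out Fkbp9 ran from -0.19 to 0.00416, Ppib from -0.0644 to 0.12 and Ifitm5 from -0.0166 to 0.30. Ifitm5 in Col2a1 cells became 1.15 in kit 3 only, Fkbp10 against Col2a1 cells -0.0196 with looser selection, and Tmem38b against other cells 0.27 without haematopoietic-like cells. The log2 difference of the Serpinh1 ratio stayed between 0.56 and 0.71 with 1 library left out, and was 0.56 with other Col1a1 limits, a setting chosen after seeing the data. Tmem38b, with 55 UMIs in eOBs, and Ifitm5 outside OBs are limited by depth.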
